A study of Mus musculus with 31 samples.

Results

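Mouse embryonic stem cells were labelled for 10 or 15 minutes with 200 µM 4-thiouridine (4sU), a uridine analogue that growing transcripts take up, and the RNA was then separated into a labelled fraction, made during the pulse, and a preexisting fraction, made before it. The 8 wild-type (WT) 4sU libraries, of 31 samples in the series and 16 4sU libraries in all, were chosen by genotype and fraction: 4 labelled and 4 preexisting, from 2 replicate cultures at each of 2 labelling times. The cells are the XY line DTCM23/49, which carries a conditional Dicer allele. They grew on gelatin without feeder cells in 15% serum with LIF, and the label of the WT samples gives 8 days of treatment without saying whether these cells received the 800 nM tamoxifen metabolite that the protocol names. The other 8 4sU libraries come from cells of the same line labelled as depleted of Dicer, also after 8 days, and entered the fits only to estimate the spread and for 1 comparison. The preexisting libraries bear "tot" in their titles, but their sample descriptions call them preexisting RNA. Libraries of cells that never received 4sU were not analysed here, so the amount of unlabelled RNA carried into the labelled fraction was not tested.

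An RNA is abundant because it is made often, because it lasts, or both. RNA made minutes ago mirrors the rate of synthesis, whereas the standing pool also mirrors survival, so at steady state a transcript that decays fast holds a larger share of new RNA than of old, and a long-lived one a smaller share. Freshly made RNA also contains introns and short-lived nuclear transcripts. mRNAs of metabolism and structure are known to be long-lived in many cells, while those of transcription factors and growth-factor responses are known to turn over fast, in part through AU-rich elements bound by decay-promoting proteins.

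Expression is given in TPM, a transcript count per unit length scaled to a fixed total, exonic signal summed per gene, and every ratio is a log2 labelled-to-preexisting difference of log2(TPM + 1), which understates the difference of low genes. The 2 labelling times were averaged for each culture, so that n = 2 cultures for each fraction. Of 21821 features with a mean of at least 1 TPM, 17372 matched a GENCODE M21 gene and 11279 were protein coding. All 10 embryonic stem cell markers reached 1 TPM in both fractions, with a summed level of 1314 to 1447 TPM in the labelled and 1788 to 1934 TPM in the preexisting libraries. The summed fibroblast markers stayed between 2.20 and 6.71 TPM, those of primitive endoderm between 2.42 and 8.72 TPM and those of trophoblast between 2.73 and 6.11 TPM. The neural and mesoderm set summed to 6.73 to 15.5 TPM, most of it Pax6, with 11.7 TPM in labelled and 8.32 TPM in preexisting RNA. Because the files hold no read counts, the depth of the libraries is unknown.

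Labelled RNA held more intronic and noncoding sequence and less mRNA. Intronic entries took 15.5% to 18.4% of the signal in the 4 labelled libraries and 4.41% to 5.49% in the 4 preexisting ones. Protein-coding genes took 47.8% to 49.4% of the labelled and 57.7% to 60.6% of the preexisting signal. Long noncoding RNA genes took 1.84% to 1.96% against 1.18% to 1.27%, and snRNA, snoRNA and other small RNA entries 0.739% to 1.02% against 0.196% to 0.267%. Each of these 4 ranges was separate from its counterpart in the other fraction.

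With limma, 5692 of 21821 features (26.1%) were higher in labelled than in preexisting RNA and 1742 (7.98%) were lower, at a Benjamini-Hochberg adjusted p under 0.05. Among the 11279 coding genes the balance turned: 849 (7.53%) were higher and 1102 (9.77%) lower, and these shares are the background against which the gene groups that follow are read. The median log2 ratio was 0.24 over all features and -0.02 over coding genes. The position of 0 is a matter of scale. Centring each library on its own median moved the median of all features to -0.25 and left 39.8% of the calls higher in labelled RNA, against 76.6% as deposited, while rescaling to the coding genes moved it to 0.47 and left 90.3%. Gene groups are therefore also placed by their distance from the coding median, which a shift of scale leaves nearly the same. Rescaling to coding genes also changed the sign of 13 of 45 list medians. Rescaled counts are given for only some of the lists, and counts given without them may also depend on the scale. With either WT culture left out and times averaged, each WT fraction held 1 value, whose spread is taken from the depleted cells, and no feature passed with limma (6834 and 6077 had an unadjusted p under 0.05). With each library as its own value, 4904 and 4080 were higher and 1373 and 980 lower without culture 1 and without culture 2.

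The contrast between labelled and preexisting RNA can be seen in single genes. Actb (chromosome 5, 142903115 to 142906754, mm10), which encodes beta-actin, measured 426 and 400 TPM in the labelled libraries of culture 1 at 10 and 15 minutes and 368 and 423 TPM in those of culture 2. In the same order its preexisting libraries held 1386, 1850, 1407 and 1458 TPM. All 4 preexisting libraries thus lay far above any labelled one, and the log2 ratio was -1.90 (SE 0.18, adjusted p = 0.000648). Zfp367 (chromosome 13, 64133018 to 64153202), a zinc finger gene, showed the opposite pattern. Its labelled libraries held 27.8, 24.2, 27.4 and 23.6 TPM and its preexisting libraries 3.02, 4.53, 4.44 and 5.13 TPM. The fractions did not overlap, and the log2 ratio was 2.35 (SE 0.24, adjusted p = 0.000714). Mcl1, which encodes a short-lived survival protein, differed in neither direction: 85.9, 56.5, 82.4 and 72.2 TPM in labelled RNA overlapped 54.0, 71.6, 89.2 and 77.8 TPM in preexisting RNA (log2 ratio 0.03, SE 0.23, adjusted p = 0.95).

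**Figure D1:**
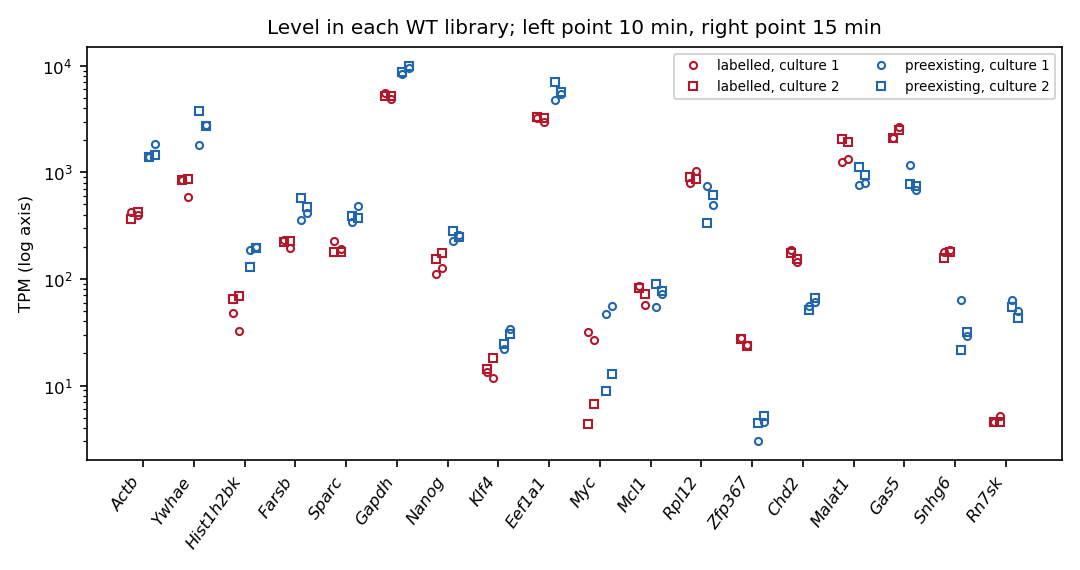
Exonic TPM on a log axis for single genes in each of the 4 labelled and 4 preexisting WT libraries, 1 point per library. Actb lies lower in every labelled library, at 368 to 426 TPM against 1386 to 1850 TPM, and Zfp367 higher, at 23.6 to 27.8 TPM against 3.02 to 5.13 TPM.

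By kind of gene, noncoding transcripts were those most often higher in new RNA. Of 1068 long noncoding RNA genes, 608 (56.9%) were higher and 22 lower, with a median ratio of 1.03. Of 289 snoRNA and scaRNA entries, which guide the chemical modification of other RNAs and mostly lie inside introns of host genes, 169 (58.5%) were higher and 0 lower, with a median of 1.64. Loci annotated only as to be experimentally verified reached 404 of 454 (89.0%), and sense-intronic transcripts 59 of 64. Pseudogenes did not share the pattern, with 435 of 3376 higher, 504 lower and a median of -0.04. The 4449 exonic features that matched no annotated gene included 2985 that were higher (67.1%), at a median of 1.24. For snoRNAs inside introns and for sense-intronic loci, reads from the host and from the resident RNA cannot be told apart in these tables.

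**Figure D2:**
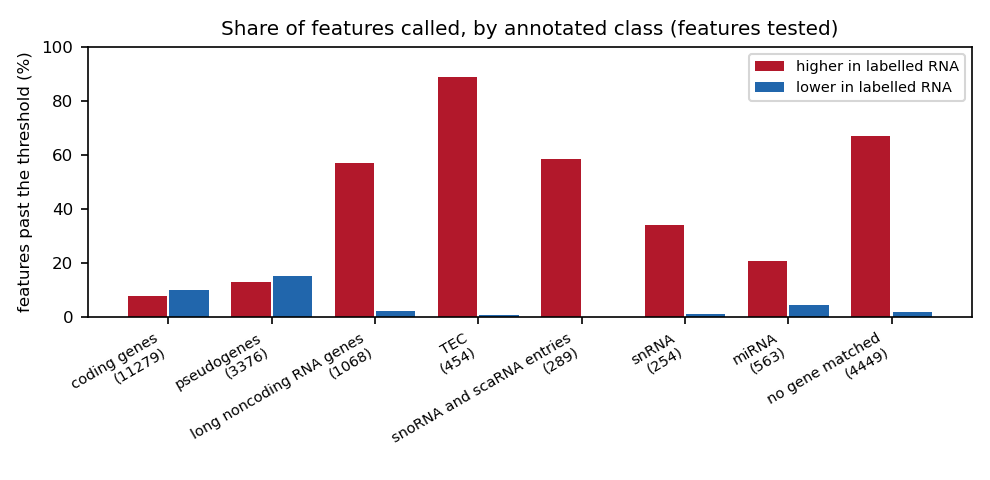
Share of the tested features of each annotated class (y axis, percent) that passed the test as higher or lower in labelled RNA, 1 pair of bars per class. Of coding genes 7.53% were higher and 9.77% lower, whereas 56.9% of long noncoding RNA genes and 58.5% of snoRNA and scaRNA entries were higher.

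Small RNAs made by RNA polymerase III that are known for their stability had far lower ratios; they were chosen after the values were seen. Rn7sk (chromosome 9, 78175303 to 78175633), the 7SK RNA that holds the elongation factor P-TEFb inactive, measured 4.59, 5.23, 4.51 and 4.53 TPM in labelled and 63.5, 49.6, 54.9 and 43.5 TPM in preexisting RNA. No library of one fraction came near the other, and the log2 ratio was -3.23 (SE 0.21, adjusted p = 0.000523). Rmrp, the RNA of the RNase MRP enzyme, had a ratio of -2.75 (SE 0.22, adjusted p = 0.000523), and Rpph1, that of RNase P, one of -1.34 (SE 0.25, adjusted p = 0.0052), although both levels were low, at 8.38 and 2.04 TPM in preexisting RNA.

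Replication-dependent histones were the coding group with the lowest median. These genes package new DNA, are transcribed in S phase, lack introns, and end in a conserved stem-loop in place of a poly(A) tail. Of 67 annotated genes 61 were tested: 36 were lower in labelled RNA (59.0%, against 9.77% of coding genes), 1 was higher, and the median ratio was -1.06 (24 lower and 2 higher when rescaled to coding genes). The median of every culture and time taken alone was below 0, from -1.83 to -0.50. It also stayed below 0 with libraries centred, rescaled to coding or to exonic signal, restricted to coding isoforms, or freed of a trend with transcript length. Hist1h2bk (chromosome 13, 22035870 to 22036345) measured 47.8, 32.2, 65.3 and 68.9 TPM in labelled and 186, 199, 129 and 194 TPM in preexisting RNA. Every preexisting library exceeded every labelled one, at a log2 ratio of -1.75 (SE 0.30, adjusted p = 0.00387).

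The histone families were not alike. All 14 tested H2B genes were lower (median -1.53, from -1.75 to -1.17), as were 11 of 17 H2A genes (median -1.003) and 10 of 13 H4 genes (median -1.41). Linker histone H1 had 1 of 5 genes lower, at a median of -1.04. None of the 12 tested H3 genes passed in either direction, and their ratios ran from -0.29 to 0.78 around a median of 0.10. Hist4h4 was the 1 histone that was higher, with 2.88 ± 0.28 TPM in labelled and 0.301 ± 0.042 TPM in preexisting RNA (SD, n = 2) and a ratio of 1.57 (adjusted p = 0.00214). Members of a family are nearly identical copies that share reads, so the value of a single histone gene is uncertain and the families are the firmer unit.

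**Figure D3:**
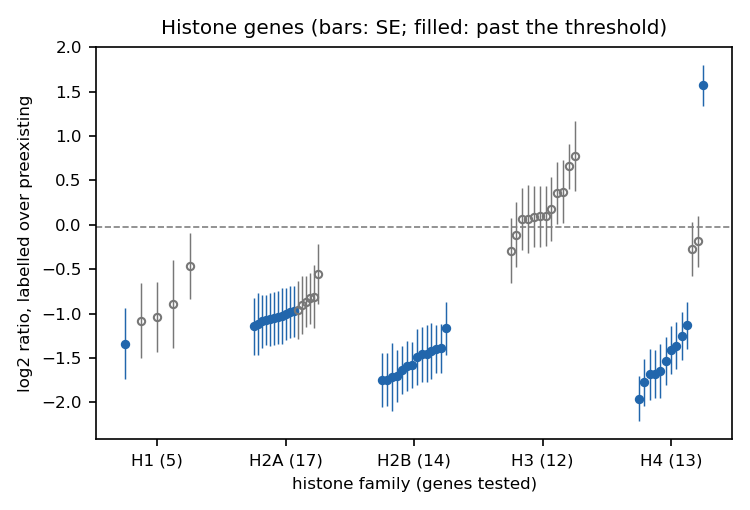
Log2 labelled-to-preexisting ratio of each replication-dependent histone gene, by family, with filled points for genes past the threshold. All 14 H2B genes lie at or below -1.17, while the 12 H3 genes spread from -0.29 to 0.78.

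The stem-loop was present in families of both kinds, which the following sequences show. They are the RNA-sense strand of the GRCm38.p6 genome at GENCODE M21 3′ UTRs, with the 16 bases of the stem-loop in capitals, for 5 histones among the 15 largest falls and then for the 2 H3 genes with a stem-loop and the highest ratios.
Hist1h4d, chr13:23581945-23581970, plus strand, ratio -1.96: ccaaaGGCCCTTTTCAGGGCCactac
Hist1h2bk, chr13:22036295-22036320, plus strand, ratio -1.75: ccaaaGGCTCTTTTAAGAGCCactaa
Hist1h2bg, chr13:23571838-23571863, plus strand, ratio -1.70: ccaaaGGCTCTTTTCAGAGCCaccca
Hist1h4n, chr13:21831793-21831818, minus strand, ratio -1.68: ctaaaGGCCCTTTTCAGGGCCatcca
Hist1h4h, chr13:23531453-23531478, plus strand, ratio -1.68: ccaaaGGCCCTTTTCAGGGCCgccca
Hist2h3c1, chr3:96247322-96247347, plus strand, ratio 0.66: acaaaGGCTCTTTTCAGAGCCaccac
Hist1h3d, chr13:23576239-23576264, plus strand, ratio 0.78: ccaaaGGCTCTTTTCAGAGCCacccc
Hist1h2bg, lower in labelled RNA, and both H3 genes, which did not pass the test, carry the same stem-loop letters. Of the 61 histones, 39 had the stem-loop in an annotated UTR, with 21 lower and a median of -1.003. Another 10 had a UTR without these letters, with 6 lower and a median of -1.22, and 12 had no annotated UTR. The stem-loop was found in 44 of all 10901 coding genes tested that have a 3′ UTR (0.404%). How well polyadenylated and stem-loop ends were each captured by the library kit was not tested.

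Structural genes came next. Of 38 tested cytoskeleton genes, 21 were lower in labelled RNA (55.3%), 1 was higher and the median was -0.62, negative under the same 5 alternatives and in each culture and time, with 11 lower and 1 higher when rescaled to coding genes. Beside Actb, the falls included Pfn1 and Cfl1, regulators of actin assembly, with ratios of -1.62 and -1.30, the gamma-actin gene Actg1 at -1.28 and the intermediate filament gene Vim at -1.15. Pfn1 measured 183 ± 26.9 TPM in labelled and 574 ± 120 TPM in preexisting RNA (SD, n = 2). Tuba1b, an alpha-tubulin gene, was lower by a ratio of -0.91, and the exception was Myl6, a myosin light chain gene, at 1.10 (adjusted p = 0.0143). All 15 tested basement membrane and matrix genes lay below the coding median, and 6 passed, 0 of them upward. Rescaled to coding genes, 3 were lower and 0 higher. Sparc, a secreted matrix glycoprotein gene, held 226, 192, 177 and 181 TPM in labelled and 346, 479, 386 and 369 TPM in preexisting RNA, with no overlap and a log2 ratio of -1.02 (SE 0.15, adjusted p = 0.00211). Fibronectin, encoded by Fn1, had a ratio of -0.58 that missed the threshold (adjusted p = 0.0811).

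Genes of protein synthesis other than the ribosomal proteins had more members lower than higher in labelled RNA. Of 23 cytosolic tRNA synthetase genes, which attach amino acids to tRNAs, 9 were lower and 0 higher, with a median of -0.61 (3 and 0 when rescaled to coding genes). Farsb, the beta subunit of phenylalanyl-tRNA synthetase, held 233, 197, 224 and 229 TPM in labelled and 358, 418, 570 and 473 TPM in preexisting RNA. Its fractions were separate, at a ratio of -1.02 (SE 0.19, adjusted p = 0.00487). Of 67 translation initiation and elongation factor genes, 23 were lower and 0 higher (34.3%), and the median was -0.36. Rescaled to coding genes, 12 were lower and 5 higher, with a median of -0.07. These genes are abundant, and of the fifth of coding genes with the highest mean TPM 25.2% were lower. Eef1a1, which delivers tRNAs to the ribosome, measured 3268, 3000, 3306 and 3235 TPM in labelled and 4803, 5477, 7074 and 5708 TPM in preexisting RNA. It was lower in every labelled library (log2 ratio -0.83, SE 0.13, adjusted p = 0.0027), as was Pabpc1, the poly(A)-binding protein gene, at -1.30 (SE 0.17, adjusted p = 0.00154). Ribosome biogenesis factors had 8 of 55 lower (14.5%) and 0 higher, with 45 of them below the coding median. Rescaled to coding genes, 4 of these factors were lower and 2 higher.

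In energy metabolism the enzymes of glycolysis and of the citric acid cycle had low medians and the respiratory chain had members on both sides. Of 22 glycolytic genes 6 were lower (27.3%) and 0 higher, at a median of -0.46. Of 19 citric acid cycle genes 4 were lower (21.1%) and 0 higher, at a median of -0.47. Both lists are abundant, at a median of 89.0 and 47.5 TPM in preexisting RNA. In the fifth of coding genes with the highest mean TPM, 25.2% were lower and the median was -0.27, so these shares are near that of abundant genes. Rescaled to coding genes, 3 glycolytic genes were lower and 0 higher, and 1 citric acid cycle gene passed in each direction. Gapdh, the glycolytic dehydrogenase often used as a reference gene, measured 5568, 4871, 5248 and 5163 TPM in labelled and 8375, 9573, 8806 and 10006 TPM in preexisting RNA. The fractions did not overlap (log2 ratio -0.82, SE 0.12, adjusted p = 0.00192). The glucose transporter genes Slc2a3 and Slc2a1 were lower too, at -1.01 and -0.98, and so was citrate synthase, Cs, at -0.999. Respiratory chain and ATP synthase subunits, by contrast, had 5 of 79 higher and 3 lower around a median of 0.15, which turned negative when libraries were centred. Rescaled to coding genes, 16 were higher and 1 lower. As deposited, the 3 that were lower included the catalytic ATP synthase subunits Atp5b at -0.72 and Atp5a1 at -0.52. The 13 mRNAs encoded by the mitochondrial genome have no row in the table.

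Among genes of cell identity, 5 of 22 naive pluripotency factors were lower and 0 higher, with a median of -0.37 and 15 of them below the coding median. Rescaled to coding genes, 2 were lower and 1 higher, with a median of -0.10. Nanog measured 112, 126, 153 and 174 TPM in labelled and 227, 260, 279 and 249 TPM in preexisting RNA, with no overlap and a ratio of -0.86 (SE 0.25, adjusted p = 0.0292). Klf4 measured 13.5, 11.8, 14.3 and 18.1 TPM against 21.9, 33.8, 24.4 and 30.3 TPM and had a ratio of -0.89 (SE 0.21, adjusted p = 0.0147). Utf1 at -1.46, Sall4 at -1.14 and Klf5 at -0.62 also passed. Pou5f1, which encodes OCT4, did not, and its fractions overlapped, at 68.6 to 92.6 TPM in labelled and 63.9 to 149 TPM in preexisting RNA (ratio -0.32, adjusted p = 0.484). Sox2, at -0.45, missed the threshold as well (adjusted p = 0.125), and the markers Dppa5a, Dppa3 and Zfp42 had positive ratios of 0.39, 0.25 and 0.41 that did not pass. Lin28a, which encodes an RNA-binding protein that blocks let-7 maturation, was lower at -1.53 (SE 0.28, adjusted p = 0.00481).

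Genes of chromatin, the cell cycle and stress showed single members on both sides. The DNA methyltransferase genes Dnmt3a, Dnmt3b and Dnmt1, with ratios of -1.31, -1.07 and -1.04, and their cofactor gene Uhrf1, at -0.90, were all lower, whereas the median of the 15 methylation and TET genes was -0.01. Among 32 chromatin remodelling genes 8 were lower (25.0%) and 2 higher. Rescaled to coding genes, 4 were lower and 3 higher. Chd4, the ATPase of the NuRD complex, measured 82.8 ± 5.67 TPM in labelled and 163 ± 16.2 TPM in preexisting RNA (SD, n = 2), at a ratio of -0.97. Its relative Chd2 went the other way, with 185, 144, 177 and 155 TPM in labelled and 55.2, 60.6, 51.7 and 65.7 TPM in preexisting RNA, no overlap, and a ratio of 1.49 (SE 0.26, adjusted p = 0.0041). Of 36 mitotic genes 8 were lower (22.2%), Plk1 among them at -1.21. Only the centromeric histone gene Cenpa was higher, at 0.75, and it missed the threshold on coding isoforms (0.44, adjusted p = 0.0805). Rescaled to coding genes, 3 mitotic genes were lower and 1 higher. The chromatin remodelling and mitotic lists each have a median of 53.2 TPM in preexisting RNA. In the fifth of coding genes with the highest mean TPM, 25.2% were lower, so both shares are near that of abundant genes. Of 37 heat shock and cochaperone genes 11 were lower (29.7%), including the constitutive chaperones Hsp90ab1 at -0.96 and Hspa8 at -0.77, and 4 were higher. Dnajb4 was among them at 1.61, but missed the threshold on coding isoforms (0.88, adjusted p = 0.256), where the list had 12 lower and 2 higher. Rescaled to coding genes, the heat shock list had 4 lower and 5 higher. Trp53, which encodes p53, was lower at -1.10 (SE 0.22, adjusted p = 0.00742), while Mdm2, which encodes the ligase that degrades p53, had a ratio of 0.20 that did not pass.

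**Figure D4:**
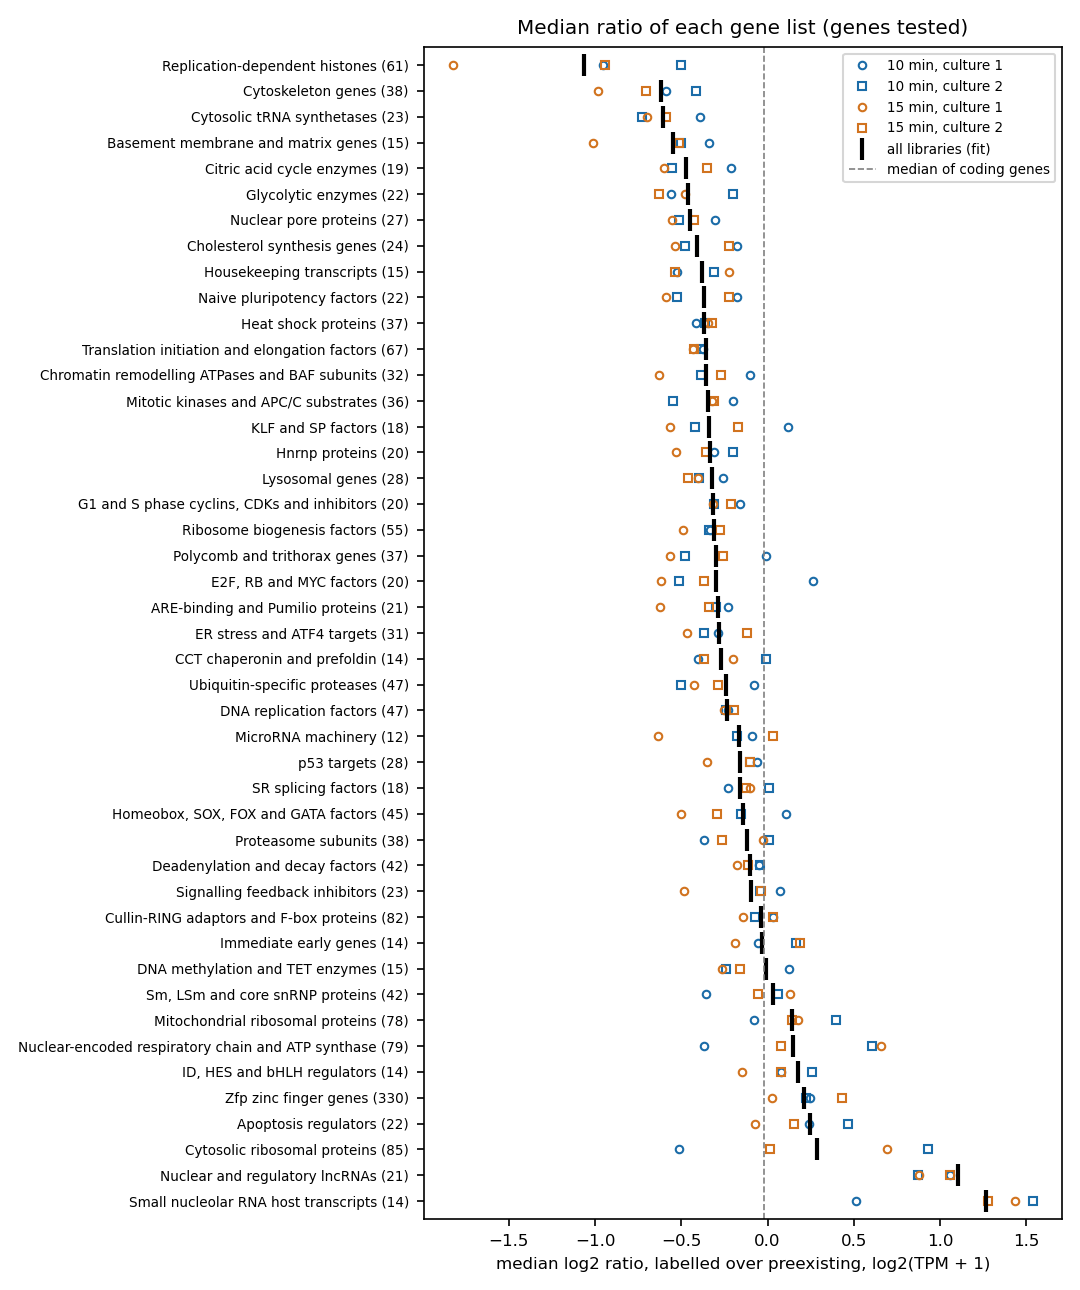
Median log2 labelled-to-preexisting ratio of each gene list, as a bar for all libraries and as points for the 4 culture and labelling time pairs. Histones (-1.06) and cytoskeleton genes (-0.62) stand lowest, nuclear long noncoding RNAs (1.10) and snoRNA host transcripts (1.26) highest, and cytosolic ribosomal proteins have a wide range, from -0.52 to 0.93.

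Immediate early genes, known for fast responses, had a median exonic ratio of -0.03, near the -0.02 of coding genes. Of the 14 that passed the filter, of 27 listed, 0 were lower and 2 higher (14.3%, against 7.53% of coding genes). This share rests on the antiproliferative genes Btg1 at 1.26 (adjusted p = 0.0119) and Btg2 at 0.75 (adjusted p = 0.0493). Both lay at low levels, with 4.53 ± 1.65 and 1.90 ± 0.70 TPM in labelled RNA (SD, n = 2). Myc measured 31.5, 26.8, 4.36 and 6.75 TPM in labelled and 46.7, 56.1, 8.84 and 12.7 TPM in preexisting RNA. It was higher in culture 1 than in culture 2 in both fractions, and within each of the 4 culture and time pairs the labelled value was the lower. The fractions overlapped across cultures, a difference that enters the SE of 1.03 of its ratio of -0.82 (adjusted p = 0.587). Signalling feedback inhibitors had 1 of 23 higher and 1 lower, around a median of -0.10 that turned positive when rescaled to coding genes. Apoptosis regulators had 3 of 22 higher and 1 lower, around a median of 0.25 that centring turned negative. On coding isoforms 0 of them were higher and 1 lower, with a median of 0.06. With all isoforms Cflar, the caspase-8 inhibitor gene, was higher at 1.46, but it missed the threshold on coding isoforms. Bak1, a pore-forming effector gene, was lower at -1.46.

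Zinc finger genes named Zfp were the largest group on the new side. Of 330 tested, 46 were higher (13.9%, against 7.53% of coding genes) and 7 lower (2.12%), and 97 lay below the coding median. The median was 0.21, between 0.03 and 0.43 in the 4 culture and time pairs, and it became -0.27 when libraries were centred. After Zfp367, the highest were Zfp202 at 2.18 (SE 0.20, adjusted p = 0.000644) and Zfp672 at 2.15 (SE 0.31, adjusted p = 0.00197). Zfp202 measured 28.3 ± 0.145 TPM in labelled and 5.75 ± 0.91 TPM in preexisting RNA (SD, n = 2). Zfp207, the spindle regulator BuGZ, was an exception at -0.69, with 765 TPM in labelled and 1244 TPM in preexisting RNA.

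Short mRNAs of ribosomes and mitochondria had ratios that followed single libraries. Of 85 cytosolic ribosomal protein genes 9 were higher and 3 lower, and the median of 0.29 became -0.19 when libraries were centred. Rescaled to coding genes, 28 were higher and 0 lower, and with libraries centred 0 were higher and 13 lower. The list's median in the 4 culture and time pairs was -0.52, 0.93, 0.69 and 0.01, for culture 1 and culture 2 at 10 minutes and then at 15 minutes. Transcript length moved with these values. The median level of 1306 coding genes of at most 1200 bases, less that of 5408 genes over 3000 bases, was 0.57, -0.39, 0.07 and 0.01 in the preexisting libraries in that order, in log2 units relative to each gene's mean over all libraries, and 0.35, 0.25, 0.60 and 0.19 in the labelled ones. The labelled value exceeded the preexisting one least in culture 1 at 10 minutes, where it was the lower, and most in culture 2 at 10 minutes, as the list's median did. How far this difference between libraries sets the list's values was not tested beyond the correction that follows. With the length trend of each library subtracted, ribosomal protein genes stood 0.16 above the coding median, with 3 higher and 4 lower. Corrected in the same way, the mitochondrial ribosomal proteins stood 0.10 above it, with 0 higher and 0 lower, against 5 of 78 higher and 0 lower uncorrected. The respiratory chain list stood 0.05 above it, with 0 higher and 3 lower, against 5 and 3 uncorrected. By contrast, histones stood at -1.18 and cytoskeleton genes at -0.65.

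Single ribosomal protein genes passed in both directions. Rpl12, a protein of the large subunit's stalk base, measured 794, 1034, 909 and 864 TPM in labelled and 748, 492, 337 and 611 TPM in preexisting RNA. The lowest labelled library lay just above the highest preexisting one, and the ratio was 0.77 (SE 0.17, adjusted p = 0.00991). Rps15 and Rpl10 were lower, at -0.68 and -0.61 (adjusted p = 0.0337 and 0.0485), with overlapping libraries. These genes have many processed pseudogenes. A median of 26.5% of the summed signal of gene and pseudogenes fell on the 264 annotated pseudogenes named after them, and adding it back kept the list's median within the spread between cultures.

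snoRNA host transcripts had the highest median of the lists, at 1.26, with 10 of 14 tested genes higher and 0 lower. These genes carry snoRNAs in their introns, and their spliced RNAs are in several cases known substrates of nonsense-mediated decay. Gas5 (chromosome 1, 161034422 to 161038539) measured 2119, 2664, 2118 and 2479 TPM in labelled and 1175, 676, 778 and 751 TPM in preexisting RNA. Every labelled library far exceeded every preexisting one, and the ratio was 1.498 (SE 0.17, adjusted p = 0.000926). Snhg6 measured 180, 189, 157 and 179 TPM against 63.9, 29.4, 21.4 and 31.8 TPM, again with no overlap, at 2.35 (SE 0.26, adjusted p = 0.000841). Zfas1 followed at 2.11 (adjusted p = 0.0043), and the median of the list stayed positive with libraries centred or rescaled and in each of the 4 culture and time pairs, from 0.51 to 1.54.

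Nuclear and regulatory long noncoding RNAs were next, with 13 of 21 higher, 0 lower and a median of 1.10 that stayed positive with libraries centred or rescaled. Malat1, an abundant RNA of nuclear speckles, measured 1255, 1322, 2039 and 1946 TPM in labelled and 753, 787, 1128 and 937 TPM in preexisting RNA. All labelled libraries were higher, with a ratio of 0.85 (SE 0.26, adjusted p = 0.0386). Neat1, the scaffold of paraspeckles, had a larger ratio of 1.69 (adjusted p = 0.0215), and Mir17hg, the host of the miR-17 to miR-92 cluster, one of 1.85 (adjusted p = 0.00257). Kcnq1ot1, an imprinted antisense RNA, had a ratio of 1.45 and Firre one of 1.39. Tug1 at -0.07, H19 at -0.77 and Rian at 0.00 did not pass. Whether the counting used strand is not given in the sources used here, so reads of Kcnq1ot1 and of the gene it overlaps cannot be told apart.

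Named by size alone, the coding genes with the largest falls and rises were different in kind. Of the coding genes past the threshold, 944 lower and 389 higher ones reached 10 TPM and had no overlap between the 4 libraries of each fraction. The largest fall was that of Lars2 (chromosome 9, 123366927 to 123462666), the mitochondrial leucyl-tRNA synthetase gene. It measured 84.9, 54.3, 78.4 and 80.9 TPM in labelled and 475, 733, 885 and 641 TPM in preexisting RNA, well apart, for a ratio of -3.16 (SE 0.21, adjusted p = 0.000523). Its introns held only 1.48 TPM in labelled and 0.263 TPM in preexisting RNA. Whether all of its exonic signal comes from the Lars2 mRNA was not tested. Of the 15 largest falls 7 were histones. Others were Gm17087 at -2.14, Laptm5 at -1.93, Cldnd1 at -1.91, Ccni at -1.76, the actin-bundling gene Fscn1 at -1.68 and Ywhae, a 14-3-3 protein gene, at -1.78. Ywhae measured 857, 588, 846 and 867 TPM against 1810, 2787, 3772 and 2717 TPM, with no overlap (SE 0.20, adjusted p = 0.000837).

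The 15 largest rises began with H2-T24, a class I histocompatibility gene, at 2.89 (SE 0.23, adjusted p = 0.000523), with 13.0 ± 1.30 TPM in labelled and 0.930 ± 0.17 TPM in preexisting RNA (SD, n = 2). Eml6 at 2.75, Spaca6 at 2.57, Tnfrsf18 at 2.54 and Sntg1 at 2.52 followed. The others were Gpr1, Zfp367, Iffo1, Mcmdc2, Mfsd8, St6galnac2, the splicing regulator gene Srrm4, Gm21748, Rnf165 and Zfp202, from 2.42 down to 2.18. Much of this signal lay on isoforms not annotated as coding. At the median, 48.5% of the labelled signal of the 389 higher genes was on coding isoforms, against 76.3% for the 944 lower genes. With coding isoforms alone, 237 of the 389 (60.9%) and 888 of the 944 (94.1%) passed in the same direction, and Rnf165 turned to -0.42. Sntg1 fell below the filter there, and the other 13 of the 15 rises and all 15 falls passed again. Of the other genes named here, Cflar, at 0.09, and Mdm4, at 0.60 with all isoforms and 0.09 with coding ones, also missed the threshold there, as did Cenpa, Dnajb4 and Clk1. Among the 15 rises, the intronic signal of labelled RNA was often near or above the exonic one. It was 15.9 against 12.2 TPM for Eml6 and 23.2 against 25.7 TPM for Zfp367. In others it was lower, at 22.2 against 70.2 TPM for Rnf165. How much of their exonic signal came from unspliced RNA was not tested.

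Of the transcript properties compared, the ratio followed expression level most closely. Across 5 equal groups of the coding genes by mean TPM, from low to high, the median ratio was 0.16, 0.08, -0.01, -0.12 and -0.27, and the number lower in labelled RNA went from 15 to 569. Spearman's rho across the 11279 genes was -0.28, a description, since level and ratio are made from the same libraries and genes are not independent replicates. Of the 1003 coding genes of at least 100 TPM in preexisting RNA, 364 were lower and 26 higher, and without ribosomal proteins 361 of 923 were lower and 17 higher. This selection by the level in preexisting RNA favours low ratios. Transcript length and exon number had weaker relations (rho -0.14 and -0.15), and the share of uridines, the base that 4sU replaces, had almost none (rho -0.0045).

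AU-rich elements showed a small difference. The motif TTATTTATT was searched in the sense strand of annotated 3′ UTRs, overlapping matches included, and at least 1 copy was found in 818 of 10901 coding genes (7.50%). The 10083 genes without a copy had a median ratio of -0.03, the 634 with 1 copy 0.04 and the 184 with 2 or more 0.18. Of those 184, 15 were higher (8.15%) and 11 lower (5.98%), against 7.09% and 10.0% of the genes without a copy. The shorter ATTTA, which the longer motif contains, went the other way, from 0.03 without a copy to -0.09 with 5 or more, and the Pumilio motif TGTANATA from -0.01 to -0.13 with 3 or more. Each is a description over genes that also differ in UTR length, whose own rho with the ratio was -0.09.

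Genes with several copies of the nonamer were found on both sides, as the 3 highest and the 3 lowest show among those that passed the test with fractions that did not overlap and at least 10 TPM in one of them. The sequences are GRCm38.p6, RNA sense, with 1 copy of TTATTTATT in capitals and 8 bases on either side.
Srrm4, chr5:116442575-116442599, minus strand, 5 copies, ratio 2.24: caacttttTTATTTATTagatttat
Kantr, chrX:152296013-152296037, minus strand, 2 copies, ratio 1.32: ttacttttTTATTTATTctgctttt
Snhg11, chr2:158384021-158384045, plus strand, 3 copies, ratio 1.19: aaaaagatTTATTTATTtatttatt
Sinhcaf, chr6:148921244-148921268, minus strand, 2 copies, ratio -1.42: ttctgtatTTATTTATTtattacta
Txnrd1, chr10:82897448-82897472, plus strand, 2 copies, ratio -1.06: gttcagttTTATTTATTtatttttt
Gnl3l, chrX:150984637-150984661, minus strand, 3 copies, ratio -1.03: ttttatttTTATTTATTtatttatt
Sinhcaf, a subunit of the SIN3-HDAC complex, was abundant, at 337 TPM in labelled and 909 TPM in preexisting RNA, while Srrm4 held 12.6 and 1.80 TPM. Gnl3l, a nucleolar GTPase gene, and Snhg11 have the same overlapping run of the motif and opposite ratios. Of all genes with at least 2 copies that passed, reached 10 TPM and had separate libraries, 9 were higher and 7 lower.

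A second reading of the same libraries set the intronic signal of labelled RNA, taken as closer to synthesis, against the exonic level in preexisting RNA. It was chosen after the data were seen. The median log2 labelled-to-preexisting ratio of intronic signal was 2.47 over coding genes. Some abundant genes went the other way, such as Actb, whose introns held 109 TPM in labelled and 364 TPM in preexisting RNA, and Hspa8, with 473 and 574 TPM. What this signal consists of was not tested. The second reading ordered the gene groups differently. On log2((intronic labelled + 0.1)/(exonic preexisting + 1)), the coding median was -1.18. The exonic preexisting level is the divisor, so abundant genes score low: the median was -2.73 among coding genes of at least 100 TPM in preexisting RNA. Cytosolic ribosomal proteins had the lowest of the 44 lists with at least 10 intron-bearing genes, at -4.45, with a median of 528 TPM in preexisting RNA. By exonic ratio they ranked 42nd of 44 from the lowest. Histones, with 5 intron-bearing genes, were left out at -4.50. Housekeeping transcripts (-3.47), cytoskeleton genes (-3.14) and translation factors (-3.06) were low on both. Immediate early genes, at -2.90, were 6th from the lowest here and 34th by exonic ratio. Zfp genes (-0.62), apoptosis regulators (-0.30), nuclear long noncoding RNAs (0.58) and snoRNA hosts (0.80) were high on both. Across the 44 lists Spearman's rho between the readings was 0.49 and across 11014 coding genes it was 0.60, but both share the exonic preexisting level, and the number and length of introns were not accounted for.

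**Figure D5:**
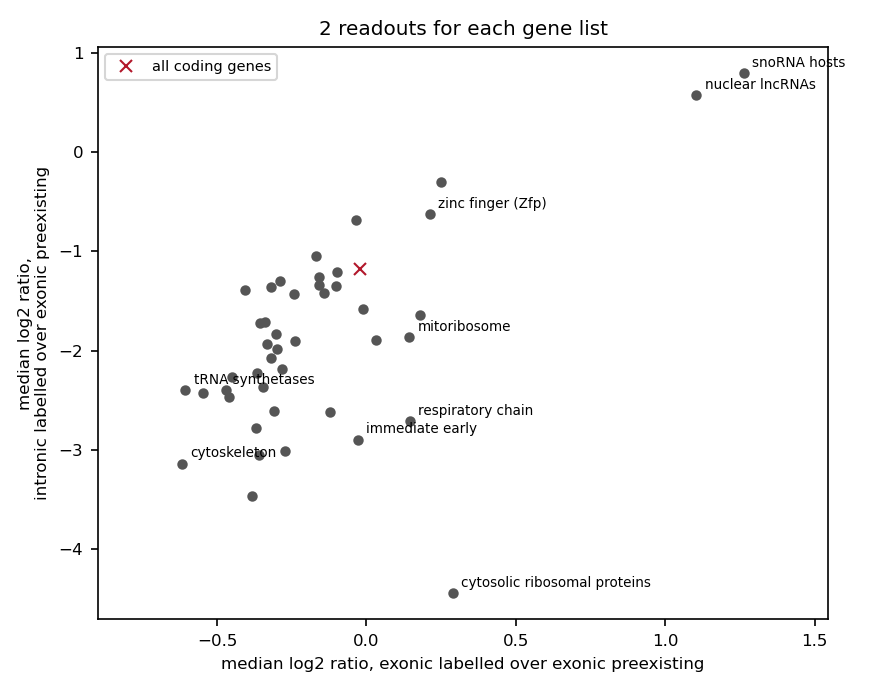
Median of each gene list for the exonic labelled-to-preexisting log2 ratio (x axis) and for intronic labelled over exonic preexisting signal, log2 (y axis), 1 point per list. Cytosolic ribosomal proteins sit at 0.29 and -4.45, apart from the other lists, and snoRNA hosts at 1.26 and 0.80.

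Many ribosomal protein and translation factor genes, and several snoRNA hosts, are known for a terminal oligopyrimidine (TOP) start, by which translation responds to nutrients through mTOR. A C followed by at least 4 more C or T, starting within 2 bases of an annotated start, was searched in RefSeq promoter entries. A gene counted if any of its entries matched. It was found in 2863 of all 27025 genes with an entry (10.59%) and in 12.26% of the coding genes tested that have one. It was found in 23 of 64 ribosomal protein genes (35.94%), 10 of 52 translation factor genes (19.23%) and 4 of 12 snoRNA hosts. The cytoskeleton list held it in 17.14%, the respiratory chain list in 15.62% and the glycolytic list in 14.29%. The bases around an annotated start of 4 such genes follow, RefSeq on GRCm38.p6 with the pyrimidine run in capitals. They come from genes picked by hand, of which those without a match are not shown.
Rpl12, chr2:32961707-32961726, plus strand, ratio 0.77: gatccgtCTTTTCggctttc
Eef1a1, chr9:78481710-78481729, minus strand, ratio -0.83: ccctCTTCCCgagggtgggg
Gas5, chr1:161035161-161035180, plus strand, ratio 1.498: tcagcCTTTCggagctgtgc
Snhg12, chr4:132308673-132308692, plus strand, ratio 1.52: agtcCTTTCTCgcttcatcc
Eef1a1 was lower and the other 3 higher in labelled RNA, so the negative sign rests on this gene alone. A match marks only these letters at the annotated start, and whether transcription begins there in these cells was not tested.

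Dicer1, the gene whose conditional allele the line carries, measured 7.83, 7.34, 8.07 and 9.65 TPM in labelled and 13.4, 17.6, 17.9 and 17.2 TPM in preexisting RNA of the WT cells. All preexisting libraries were higher, with a ratio of -0.93 (SE 0.25, adjusted p = 0.023). Of 12 tested genes of the microRNA machinery 4 were lower (33.3%, against 9.77% of coding genes) and 0 higher. The 4 were Dicer1, Ago2 at -0.87, Xpo5 at -0.79 and Drosha at -0.60. Rescaled to coding genes, 0 of the list were lower and 2 higher, and its median of -0.17 turned positive. In the 8 libraries labelled as depleted, Dicer1 lay between 1.20 and 3.52 TPM, below every WT library of either fraction.

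The labelled-to-preexisting ratio of WT cells was set against that of Dicer-depleted cells to ask which ratios differ in cells labelled as depleted of Dicer, the enzyme that cuts microRNA precursors. With limma, 1 of 21821 features passed (0.00458%), a microRNA entry of 88 bases, and 658 had an unadjusted p under 0.05. No coding gene passed. Those of smallest p were Usb1, with a difference in log2 ratio of -1.62 (SE 0.31, adjusted p = 0.864), then Gast at 1.86 and Ndufb6 at -1.23. A p that misses the threshold does not show that the ratios are the same.

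Labelling for 15 rather than 10 minutes changed the ratio of 5 features in WT cells (0.0229%), all of them entries of at most 101 bases, and 235 features had an unadjusted p under 0.05. No coding gene passed, and those of smallest p, Ccdc28a, Arhgef39 and Pmp22, each had an adjusted p of 1. The libraries of both times came from the same numbered cultures and were treated as separate samples in this test.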

How the data were processed

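RNA of mouse embryonic stem cells was sequenced after 4sU labelling, and the authors deposited 1 table of 16 libraries with exonic and intronic entries. Per the labels' protocols, the authors built the libraries from 10 ng of RNA with an Ovation RNA-Seq kit, set aside ribosomal RNA reads with STAR 2.5.0, and aligned and quantified the rest with STAR and RSEM; the build in the submitters' processing notes is mm10. The unit of the deposited table is not named, and its values are used as a signal: each deposited column sums to 10 times the total that TPM values have, so values were divided by 10. Of 121429 exonic entries 110366 matched GENCODE M21 transcripts and were summed per gene.

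Features averaging 1 TPM or more across the 16 libraries were tested with limma 3.58.1 (R 4.3.3, moderated with a trend) on log2(TPM + 1), the 2 labelling times averaged per culture and all 4 groups of genotype and fraction sharing 1 estimate of the spread. p-values are two-sided and Benjamini-Hochberg adjusted over all 21821 features, with a threshold of 0.05. The ratios of 15 against 10 minutes were fitted on single libraries. Replicates are biological by their label, and no source says how cultures were separated. On simulated data with known changes the fit was tested before use. Alternatives varied the pseudocount, filter, scaling, labelling times, replicate block, isoforms and left-out cultures. The gene lists and members were chosen with earlier results of these data known. Named genes are list members, markers, Dicer1 and the 15 coding genes with the largest rise and the 15 with the largest fall that passed, reached 10 TPM and had no overlap between fractions; for the ratios between genotypes and times they are the 3 coding genes of smallest p. Gene lists carry counts and medians without a test. Figures used matplotlib 3.10.9. Genes on chromosome 18 were left out when sequences were chosen for printing.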

Additional observations from a re-analysis of the deposited data

Results flagged for a closer look

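In 6 features the labelled-to-preexisting ratio differed between groups by the contrast's own limma test, and all are entries of at most 101 bases listed at 0 in several libraries, so their log2 values depend on the pseudocount and no fold is given. Gm47294, a microRNA entry, differed between genotypes by -4.30 (WT minus depleted, adjusted p = 0.0175). It was listed at 0 in all 4 WT labelled libraries and in all 4 depleted preexisting ones, at 10.8 and 13.5 TPM in 2 WT preexisting libraries and at 31.1 and 26.3 TPM in the 15 minute depleted labelled libraries.

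Between labelling times in WT cells, Gm44378 had a lower ratio at 15 than at 10 minutes, by -5.16 (adjusted p = 0.000167), with 41.9 and 28.6 TPM in the 10 minute labelled libraries and 0 in the other 6. The ratio was higher at 15 minutes for Mir1954 by 4.47, Snord83b by 4.19, Mir1933 by 4.08 and Gm22678 by 4.18. Mir1954, Snord83b and Mir1933 were listed at 0 in every WT library except the 15 minute labelled pair, which held 15.2 to 23.1 TPM. Mir1954 showed the same pattern in the depleted cells, with 31.0 and 26.2 TPM in the 15 minute labelled libraries alone.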

How the results depend on the processing

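Against 5692 features higher in labelled RNA, 986 of 8447 remained with a 10 TPM filter, 3397 with libraries centred on their medians, 3435 with 10 minute libraries only and 2175 of 16062 among transcripts of at least 200 bases. Against 1742 lower, there were 5147 when centred, 783 rescaled to coding genes, 995 rescaled to exonic signal, 529 at 10 minutes only and 2657 with each library as its own value. Leaving out a culture gave 0 to 5236 higher and 0 to 1336 lower, the 0 for either WT culture with times averaged (unadjusted p under 0.05: 5439 and 4780 higher, 1395 and 1297 lower); with single libraries the counts were 4904 and 4080 higher, and 1373 and 980 lower. The depleted-cell comparison, with 1 feature, gave 10 with a pseudocount of 5 TPM, 17 without a filter, 18 at 10 minutes, 23 at 15 minutes and 0 to 3 with a culture left out. It gave 0 with a pseudocount of 0.1 TPM (668 unadjusted), a 10 TPM filter (160) or at least 200 bases (409). Labelling time, with 5 features, gave 1 with a pseudocount of 0.1 TPM, 0 with a 10 TPM filter (62 unadjusted) and 46 to 50 without 1 culture. No cause of these shifts was tested, beyond the fewer features or samples that some settings use.

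Replicate numbers did not establish pairing: labelled and preexisting differences between cultures correlated at r = 0.40 in WT and 0.05 in depleted cells over 2 pairs. The replicate block gave 6341 higher and 2125 lower (6263 and 2134 within genotype), 0 features for genotype (920 and 940 unadjusted) and 5 for time. Of 126 named genes past the threshold, 125 kept their call under the block, 68 at 10 minutes only, and 0 without either WT culture (104 and 98 with single libraries), all in the same direction. Rnf165 reversed on coding isoforms, to -0.42. List medians correlated with the reported ones at a Spearman's rho of 0.56 to 0.87 in single culture and time pairs. With 2 cultures and unknown depth, small differences are not resolved.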

Other observations

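Other gene groups had more members lower than higher, by counts that depend on the scale. Of 27 nuclear pore genes 9 were lower in labelled RNA and 0 higher (33.3%, median -0.45), among them the scaffold genes Nup188 at -1.04 and Seh1l at -1.16, but 2 were lower and 1 higher when rescaled to coding genes. Of 24 cholesterol synthesis genes 3 were lower and 0 higher (12.5%, close to the 9.77% of coding genes), including the regulator gene Srebf2 at -1.13. Of 20 hnRNP genes, which package new transcripts, 7 were lower and 1 was higher, Hnrnph3 at 0.76, and rescaled to coding genes 2 passed in each direction. Of 18 genes of the SR splicing group 3 were lower, Srsf2 among them at -0.66, and 1 was higher, Clk1, a kinase of SR proteins with a known retained-intron isoform, at 0.62. On coding isoforms Clk1 missed the threshold (0.35, adjusted p = 0.215) and the list had 3 lower and 0 higher.

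Of 42 spliceosome genes 10 were lower, among them Prpf8 at -1.18, Snrnp200 at -1.09 and Sf3b3 at -0.94, and 2 were higher, Lsm1 at 1.18 and Lsm3 at 1.00, around a median of 0.03. With the length trend of each library removed 8 were lower and 1 higher. Of 47 ubiquitin-specific proteases 8 were lower, Usp22 at -1.11 and Usp9x at -0.94 among them, and 2 higher. The cullin adaptor and F-box list had 11 of 82 lower and 7 higher around a median of -0.04, with the scaffold gene Cul3 at -1.26 on one side and the F-box genes Fbxw2 at 1.74 and Fbxo7 at 1.29 on the other. Some features matched no annotated gene at high levels: the entry TCONS_00019248 held 615 ± 31.9 TPM in labelled and 6060 ± 280.0 TPM in preexisting RNA (SD, n = 2), at a ratio of -3.30 (adjusted p = 0.000218).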
